A study of Mus musculus with 27 samples.

Results

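The comparison described here asked what disulfiram (DSF) changed in the RNA of lipopolysaccharide-stimulated mouse B cells, apart from the enzymes of pyrimidine metabolism. It rested on 8 of the 27 libraries of the series. They were chosen by their labels alone as the 4 LPS and the 4 LPSDSF libraries of the first experiment, and all genes of the count table entered the test. B cells came from spleens of C57BL6 wild-type mice and were isolated by negative selection with a pan B cell kit. Cells of both groups were stimulated with LPS and kept in culture for 3 h. The LPS group received the vehicle DMSO, and the LPS+DSF group received DSF at 1 µM. The paper calls the treated cells pre-treated with DSF, and the length of that step is not given in the sources used here. Poly-A RNA was sequenced in bulk. The paper calls the 4 samples of a group biologically independent, without saying whether each came from a different mouse. No label ties equal replicate numbers to 1 mouse, so p-values measure the spread between these samples, part of which may be technical.

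DSF is a drug given against alcohol dependence that inhibits aldehyde dehydrogenase and whose metabolites bind copper and zinc. Cells answer misfolded protein with heat shock factor 1, which switches on chaperone genes, and electrophiles and oxidants with the transcription factor NRF2, which switches on glutathione, thioredoxin, heme and iron genes. LPS is sensed through TLR4 with MD-2 and, in B cells, the related RP105 complex, and it drives resting B cells through NF-kB and MAP kinases into growth, surface activation and, later, division and antibody secretion.

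The libraries held between 18057386 and 23183245 gene counts in the LPS group and between 17898147 and 20967858 in the LPS+DSF group. Of 54532 genes, 14154 had enough counts to be tested. At an adjusted p under 0.05, 5103 genes (36.1% of those tested) were lower and 4952 (35%) were higher with DSF, and 4099 were not called. All 4 values of one group lay apart from all 4 of the other for 4680 lowered genes (33.1%) and 4433 raised genes (31.3%). A call alone was therefore common, and size set the raised genes apart. Every count of list members called below stands against these shares of 36.1% lower and 35% higher. Changes of at least 2-fold were called for 1618 raised and 969 lowered genes, changes of at least 4-fold for 467 and 36, and changes of at least 16-fold for 54 and 1. A test for a change beyond 2-fold (edgeR's glmTreat) called 1022 raised genes (7.22%) and 417 lowered genes (2.95%). The direction of small changes depended on scaling: with total counts in place of TMM normalisation, the median gene moved from 0.00 to -0.21 on the log2 scale, and 6677 genes were called lower and 3477 higher. Values below are TMM-normalised counts-per-million (CPM), and changes are log2 fold changes (LPS+DSF minus LPS) with their standard errors (SE) over 4 libraries a group, relative to a median gene at 0.00. In bulk RNA, fewer cells of a type and less RNA per cell cannot be told apart.

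**Figure D1:**
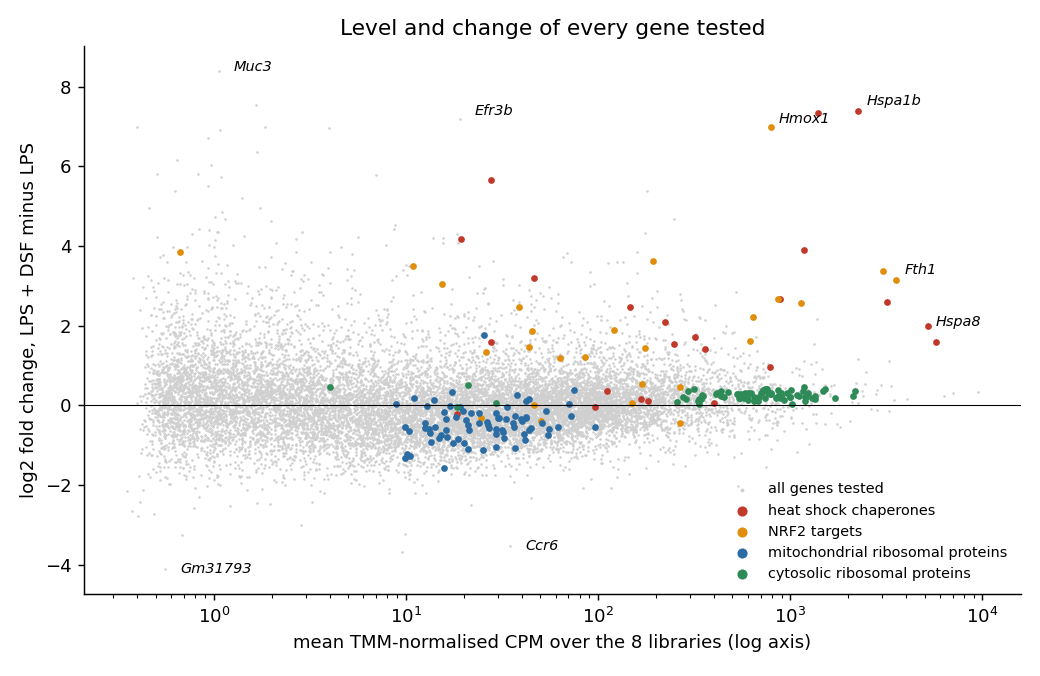
Level and change of the 14154 genes tested: the mean TMM-normalised CPM over the 8 libraries (log axis) against the log2 fold change of LPS+DSF minus LPS, with heat shock chaperones in red, NRF2 targets in orange, mitochondrial ribosomal proteins in blue and cytosolic ribosomal proteins in green. Hspa1b and Hmox1 stand at 7.39 and 6.99, while the cytosolic ribosomal proteins form a flat band with a median of 0.25 and the mitochondrial ones lie mostly below 0, with a median of -0.50.

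The vehicle libraries were not alike in their stress genes. LPS replicates 3 and 4 held more Hspa1b (41.9 and 38.2 CPM on the total-count scale) than replicates 1 and 2 (20.6 and 16), and more Mt1 (28.4 and 16.1 against 2.62 and 2.37). These values were far below those of every LPS+DSF library, where Hspa1b ranged from 3651 to 4585 and Mt1 from 111 to 136. Without LPS replicates 3 and 4, an alternative chosen after seeing the data, 5065 genes were lower and 4549 higher. The changes in the genes above were then larger, 8.01 in place of 7.39 for Hspa1b and 5.80 in place of 3.59 for Mt1. The vehicle libraries of the IL-4+anti-CD40 stimulation differed in the same way and by more, with Hspa1b at 17.2, 24.1, 197 and 736. Each use of them below is therefore also given without their replicates 3 and 4.

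The promoters of 4 strongly raised stress genes are shown because each holds the short motif by which its stress pathway is usually recognised. They were picked for that motif and do not stand for the raised genes at large. They are the 150 bases before the start of the gene from RefSeq (GRCm38.p6), written 5′ to 3′ on the strand of the gene. Capitals mark the motif found by the search. For Hspa1b (chr17:34959239-34959388, minus strand) and Hspb1 (chr5:135887769-135887918, plus strand) it is GAANNTTC, a head-to-head pair of heat shock element half-sites. In Mt1 (chr8:94178939-94179088, plus strand) it is TGCACNC, the core of a metal response element. In Gclm (chr3:122245407-122245556, plus strand) it is the antioxidant response element core TGANNNNGC, present on the opposite strand.
Hspa1b: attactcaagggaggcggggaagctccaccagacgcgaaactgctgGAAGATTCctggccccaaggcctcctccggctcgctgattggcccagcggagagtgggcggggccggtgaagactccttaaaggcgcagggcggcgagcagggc
Hspb1: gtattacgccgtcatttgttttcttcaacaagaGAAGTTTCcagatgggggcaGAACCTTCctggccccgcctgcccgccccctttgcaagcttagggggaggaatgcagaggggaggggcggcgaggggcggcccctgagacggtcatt
Mt1: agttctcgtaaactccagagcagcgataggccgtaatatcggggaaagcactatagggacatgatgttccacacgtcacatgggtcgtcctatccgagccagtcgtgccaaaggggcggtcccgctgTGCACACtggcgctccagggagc
Gclm: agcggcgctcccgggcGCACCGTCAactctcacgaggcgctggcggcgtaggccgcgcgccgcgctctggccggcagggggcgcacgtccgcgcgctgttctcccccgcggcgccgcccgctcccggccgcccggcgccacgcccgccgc

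The same stretch of Hspa1a was identical to that of Hspa1b at 149 of 150 bases. Motifs were searched on both strands of a 300-base window, from 250 bases before to 50 after the start. A gene counted as holding a motif if any of its windows did. The pair GAANNTTC was present in 10 of the 18 heat shock genes with a window (55.6%) and in 2442 of all 27025 genes with a window (9.04%). Among the 10 were Hspa1a, Hspa1b, Hsph1, Hspb1, Dnaja1, Hspd1, Hspe1 and Bag3. The mirrored pair TTCNNGAA was present in 5 of 18 (27.8%) against 2594 of all genes with a window (9.60%). TGCACNC was found in 8 of 19 genes of metal handling (42.1%) against 14.2% of all genes with a window, and TGCGCNC in 7 of 19 (36.8%) against 17.0%. TGANNNNGC was found in 15 of 21 NRF2 targets (71.4%) against 45.0% of all genes with a window. Of the raised targets with a window, 11 of 17 held it (64.7%), and its holders also included Keap1, Tkt and Abcc4, which fell with DSF. The raised genes Hmox1, Nqo1, Fth1 and Gclc were not among the holders, and whether each had a window is not given here. Some windows held more than 1 of these motifs, and a match is a description of the letters, not a site of binding.

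Heat shock chaperones rose together. Of 24 listed genes 23 were tested, of which 19 were higher with DSF, 1 was lower and 3 were not called, against the background of 35% raised, and the median change was 1.71. Their summed share of all gene counts was 0.901% in the LPS group and 3.49% in the LPS+DSF group. Hspa1b (ENSMUSG00000090877, chr17:34956436-34959238 on mm10), an inducible cytosolic HSP70, measured 19.2, 14.9, 39.0 and 35.5 CPM in the LPS libraries and 4141, 3925, 4858 and 5015 CPM in the LPS+DSF libraries. Every treated library stood far above the highest vehicle library, a change of 7.39 ± 0.35 (adjusted p = 1.37e-06). Hspa1a, its near-identical neighbour at chr17:34969190-34972156, rose by 7.35 ± 0.34 (adjusted p = 1.17e-06), and the division of reads between these copies is uncertain. Hspb1, the small heat shock protein HSP27, measured 0.840, 0.806, 1.16 and 1.60 CPM without DSF and 49.4, 43.6, 66.1 and 59.0 CPM with it. It went from barely detected to clearly expressed in every library (5.65 ± 0.22, adjusted p = 1.76e-08).

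Co-chaperones and the HSP90 system followed. Bag3, which links HSP70 to selective autophagy, measured 1.86, 2.42, 2.17 and 1.55 CPM in LPS libraries and 35.8, 32.9, 38.4 and 40.2 CPM in LPS+DSF libraries, without overlap (4.18 ± 0.11, adjusted p = 3.51e-30). Hsph1, the HSP110 nucleotide exchange factor, rose by 3.90 ± 0.054, Hspa4l, a related exchange factor, by 3.21, and the J-domain proteins Dnaja1 and Dnajb1, which hand clients to HSP70, by 2.66 and 2.46. Hsp90aa1, the inducible cytosolic HSP90, measured 870, 931, 950 and 895 CPM without DSF and 5106, 5371, 5554 and 5899 CPM with it (2.59 ± 0.048, adjusted p = 3.62e-35). The constitutive forms rose less, with Hspa8 at 2.00 ± 0.048 and Hsp90ab1 at 1.58 ± 0.045. Reads of the small nucleolar RNAs within Hspa8 may be included in its count. Among mitochondrial chaperones, Hspe1 rose by 1.71 and its partner Hspd1 by 0.95. Not every chaperone took part: Hspa4, a constitutive HSP110, had a change of 0.06 (adjusted p = 0.17) and Fkbp4, an HSP90 immunophilin, one of 0.10 (adjusted p = 0.0575). The transcript of Hsf1, the factor that drives this programme, measured between 90.5 and 103 CPM in the LPS libraries and between 88.4 and 100.5 CPM in the LPS+DSF libraries, and these overlapped (-0.04, adjusted p = 0.431). Hsf2, its relative, fell by 0.21. Cryab, a small heat shock protein, had 3 or fewer counts in every one of the 8 libraries and was not tested. The cytosolic chaperonin TRiC and prefoldin, which fold actin and tubulin, moved much less, with 8 of 14 higher, 2 lower and a median of 0.29 (7 and 6 with total-count scaling). Cct7, a TRiC subunit, rose by 0.82 and the prefoldin subunit Pfdn6 fell by 0.59.

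**Figure D2:**
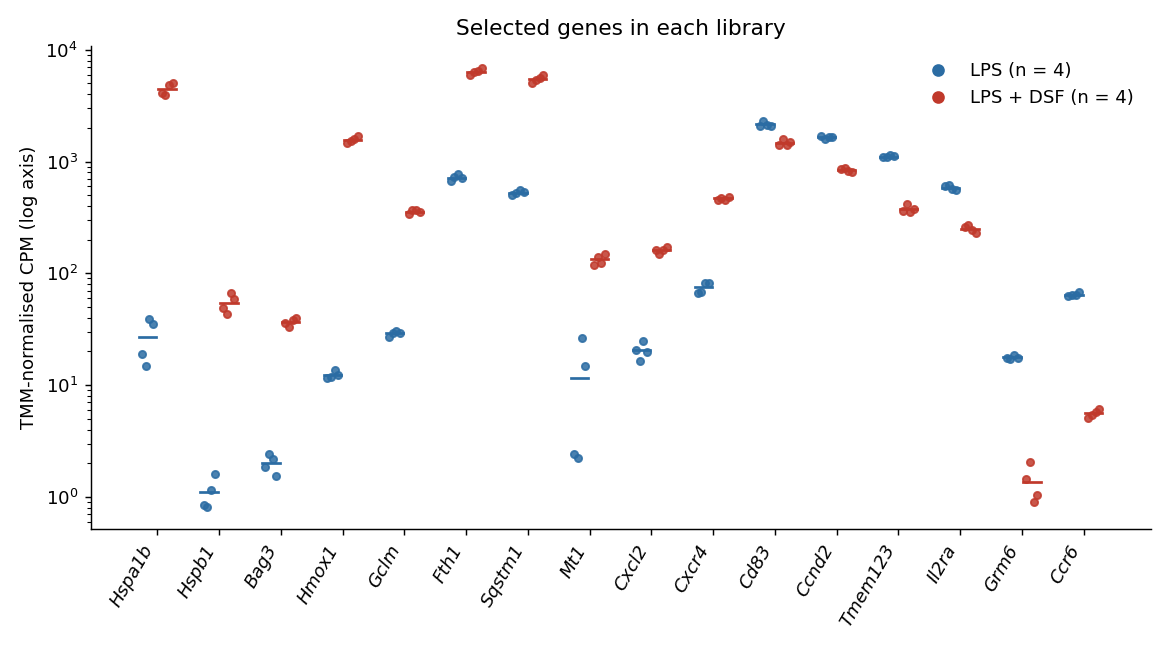
TMM-normalised CPM (log axis) of 16 genes in each of the 4 LPS libraries (blue) and the 4 LPS+DSF libraries (red), 1 point per library and a bar at the group mean. The groups lie apart for each gene shown; Hmox1 goes from a range of 11.7 to 13.7 up to a range of 1473 to 1693, and Ccr6 from 62.5 to 67.6 down to 5.05 to 6.10.

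NRF2 targets rose as well. Of 26 genes, all tested (Me1 only through the LPS+DSF libraries), 21 were higher, 3 lower and 2 not called, and the median change was 1.73. Their summed share of gene counts went from 0.390% to 1.97%. Hmox1 (chr8:75093621-75100589), heme oxygenase 1, which breaks heme down to biliverdin, iron and carbon monoxide, measured 11.7, 11.7, 13.7 and 12.3 CPM in LPS libraries and 1473, 1514, 1605 and 1693 CPM in LPS+DSF libraries. Its replicates were close and the groups lay far apart (6.99 ± 0.062, adjusted p = 5.50e-46). Iron storage rose with it. Fth1 (chr19:9982703-9985092), the ferritin heavy chain, measured 664, 728, 771 and 711 CPM without DSF and 5893, 6339, 6447 and 6890 CPM with it (3.15 ± 0.052), and Ftl1, the light chain, rose by 2.68. Slc48a1, a transporter that releases heme from lysosomes, rose by 2.46, and Blvrb, biliverdin reductase B, by 1.34.

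Glutathione and thioredoxin genes were raised too. Gclm, the regulatory subunit of the enzyme that starts glutathione synthesis, measured 26.9, 29.5, 30.5 and 29.2 CPM in LPS libraries and 337, 367, 367 and 355 CPM in LPS+DSF libraries (3.62 ± 0.048, adjusted p = 1.73e-39). The catalytic subunit Gclc rose by 2.22, the cystine importer Slc7a11 by 1.22 and glutathione reductase Gsr by 1.2. Txnrd1, thioredoxin reductase, rose by 2.57, sulfiredoxin Srxn1 by 1.86, peroxiredoxin Prdx1 by 1.61, thioredoxin Txn1 by 1.43 and catalase Cat by 1.45. Osgin1 rose by 3.50 and Nqo1, a quinone reductase, by 3.05. Nqo1 was low in every LPS library (2.66 to 3.72 CPM) and between 25.3 and 30.6 CPM in every LPS+DSF library. Nfe2l2, the gene of NRF2 itself, rose by 1.89, whereas Keap1, its inhibitor, fell by 0.38. The pentose phosphate enzymes divided: Taldo1 and Pgd rose by 0.54 and 0.45, Tkt fell by 0.45 and G6pdx had a change of -0.00 (adjusted p = 0.995). The efflux pump Abcc4 fell by 0.33, and Abcc1 had a change of 0.05 (adjusted p = 0.312).

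Genes of zinc and copper handling moved both ways, with 8 of 20 tested higher, 9 lower and a median of -0.15, shares not far from the background. Mt1 and Slc30a1, known targets of the zinc-sensing factor MTF1, were raised. Mt1, a metallothionein that binds zinc and copper, measured 2.43, 2.22, 26.5 and 14.9 CPM in LPS libraries and 118, 141, 124 and 149 CPM in LPS+DSF libraries (3.59 ± 0.62, adjusted p = 0.00182). The LPS replicates 3 and 4 were several times higher than replicates 1 and 2, yet all lay below the treated libraries, and without them the change was 5.80 (adjusted p = 1.77e-17). Slc30a1, the exporter ZnT1 of the plasma membrane, had the same layout, at 13.3, 11, 28.2 and 27.0 CPM against 68, 70.8, 69.5 and 67.3 CPM (1.82 ± 0.31, adjusted p = 0.0016, and 2.47 without LPS replicates 3 and 4). Slc39a10, the zinc importer ZIP10, did the reverse: it measured 41.5, 41.4, 32.5 and 32.7 CPM without DSF and 6.49, 6.92, 6.84 and 6.10 CPM with it (-2.49 ± 0.094). Another importer, Slc39a4, rose by 2.44. Copper genes moved both ways, with the importer Slc31a1 up by 0.29 and the exporter Atp7a up by 0.71, while Ccs, the copper chaperone of superoxide dismutase, fell by 0.41, the exporter Atp7b fell by 1.2 from under 2 CPM and Atox1, the copper carrier to the exporters, had a change of -0.16 (adjusted p = 0.157). Mtf1 rose by 0.26. Mt2 and Mt3 had at most 5 and 1 counts in any library and did not enter the test. Whether the low count of Mt2 reflects its RNA or the way reads were counted was not tested.

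Ubiquitin, p97 and proteasome genes were mostly raised. In the list of p97 (the ATPase that extracts ubiquitinated proteins), its cofactors and ubiquitin itself, 13 of 18 tested genes were higher, 1 was lower and the median was 0.31 (9 and 3 with total-count scaling). Ubb, a polyubiquitin gene, measured 453, 454, 546 and 545 CPM in LPS libraries and 2042, 2220, 2305 and 2480 CPM in LPS+DSF libraries (2.18 ± 0.083, adjusted p = 7.74e-10). The largest change of the list was that of Zfand2a, the arsenite-inducible protein AIRAP that binds the proteasome, at 18.9 to 23.4 CPM against 231 to 256 CPM (3.60 ± 0.056). Vcp, which encodes p97, rose by 1.24 ± 0.044, its cofactor Nploc4 (NPL4) by 1.15 ± 0.040 and Ubxn4, which tethers p97 to the endoplasmic reticulum, by 2.21 ± 0.042.

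In the proteasome list 30 of 43 genes were higher, 11 lower and the median was 0.32, and with total-count scaling 22 were higher and 14 lower. In the second experiment, of 1 library a group, the median log2 ratio of these genes was -0.33, with 14 above and 29 below 0. The regulatory particle subunits Psmd1 and Psmc2 rose by 1.13 and 1.07. The lowered members included the immunoproteasome subunits Psmb10 (-0.93 ± 0.052), Psmb8 (-0.56) and Psmb9 (-0.15) and the activator genes Psme1 (-0.59) and Psme2 (-0.69). Psmb10 measured 84.1, 88.9, 88.3 and 87.7 CPM without DSF and 40.7, 47.7, 49.1 and 45.6 CPM with it, a clear separation in the direction opposite to most of the particle.

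Autophagy receptors and machinery had 16 of 21 genes higher, 3 lower and a median of 0.93. Sqstm1 (chr11:50199366-50210827), the receptor p62 that carries ubiquitinated cargo and holds KEAP1, measured 507, 523, 551 and 531 CPM in LPS libraries and 5097, 5317, 5648 and 5984 CPM in LPS+DSF libraries (3.38 ± 0.050, adjusted p = 4.43e-38). The opposite-strand gene Mrnip overlaps it. Gabarapl1, an ATG8 family protein of the autophagosome membrane, measured 15, 16.7, 17.8 and 15.5 CPM without DSF and 150, 162, 170 and 181 CPM with it (3.35 ± 0.060). Ulk1, the kinase that starts autophagy, rose by 2.21, the lysosomal membrane protein Lamp1 by 2.14 and Map1lc3b, LC3B, by 1.2.

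The integrated stress response list, built around the factors ATF4 and CHOP, had 18 of 28 tested genes higher, 6 lower and a median of 0.52. Atf3, a stress-inducible transcription factor, measured 47.2, 51.1, 49.96 and 47.8 CPM in LPS libraries and 348, 328, 368 and 386 CPM in LPS+DSF libraries (2.86 ± 0.049). Ddit3, which encodes CHOP, rose by 2.01, Slc3a2, the heavy chain of amino acid exchangers, by 2.00, Cebpg by 1.43 and the phosphatase subunit Ppp1r15a (GADD34) by 1.25. The transcript of Atf4, whose control is mostly translational, rose by 0.56, and the heme-regulated kinase gene Eif2ak1 fell by 0.60.

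The unfolded protein response of the endoplasmic reticulum was raised less evenly, with 14 of 22 higher, 6 lower and a median of 0.30. Dnajb9, ERdj4, rose by 2.50 ± 0.047, the chaperones Canx and Calr by 0.97 and 0.95, and Hspa5, BiP, by 0.50. Xbp1 measured 64.7, 63.6, 59.7 and 64.4 CPM without DSF and 102, 108, 107 and 108 CPM with it (0.75 ± 0.045). Among p53 targets 12 of 19 were higher, 5 lower and the median was 0.31. Cdkn1a, the cell cycle inhibitor p21, measured 81.0, 86.3, 99.1 and 93.1 CPM without DSF and 458, 449, 464 and 488 CPM with it (2.37 ± 0.049). Plk2 rose by 2.62, Gdf15 by 2.37 and Mdm2 by 1.19. Trp53, the gene of p53, had a change of 0.10, a call that turned to -0.11 with total-count scaling.

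**Figure D3:**
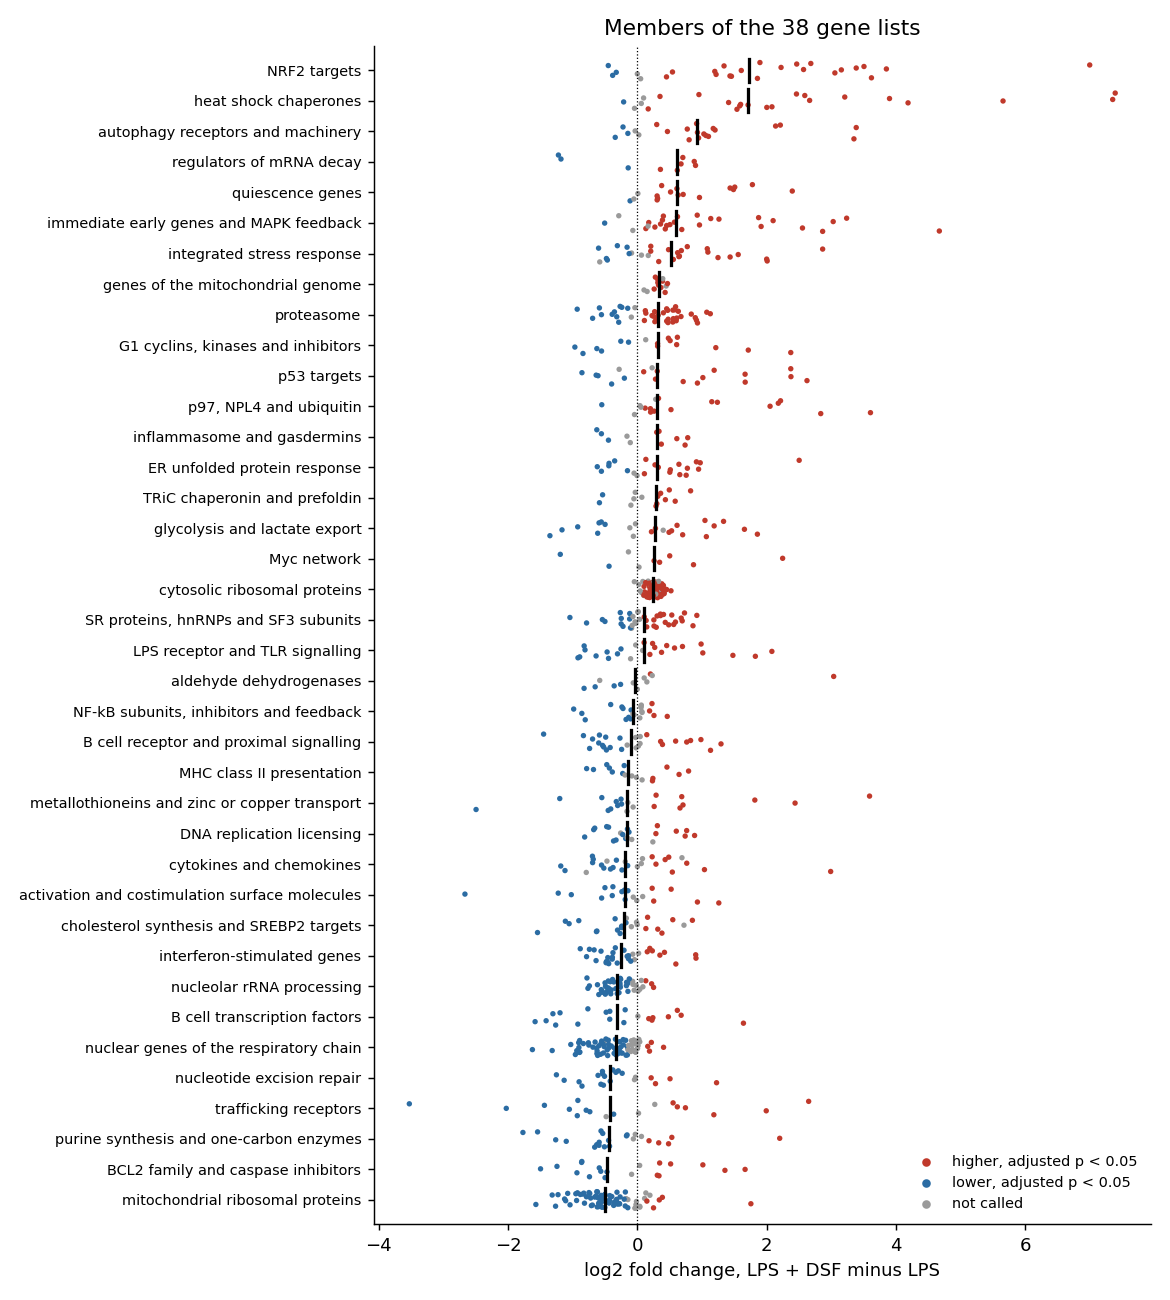
The log2 fold change (LPS+DSF minus LPS) of each tested member of 38 gene lists, 1 point per gene, red for higher, blue for lower and grey for not called, with a black bar at the median of the list and a dotted line at the median of all genes tested, 0.00. Lists are ordered by their median, from NRF2 targets at 1.73 and heat shock chaperones at 1.71 down to mitochondrial ribosomal proteins at -0.50.

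Immediate early genes and the feedback genes of MAP kinases were mostly raised, 24 of 28, with 1 lower and a median of 0.60. Maff, a small MAF protein that pairs with NRF2, measured 17.4, 16.8, 20.7 and 20.8 CPM in LPS libraries and 449, 450, 508 and 509 CPM in LPS+DSF libraries, with no overlap (4.67 ± 0.067, adjusted p = 1.43e-24). Nr4a2, an orphan nuclear receptor, rose by 3.24 ± 0.10, and the AP-1 proteins Fosl1, Fosb and Fos rose by 3.03, 2.55 and 1.87. Jun, the main partner of FOS proteins, was the member that fell. With the spread of all 20 libraries of the first experiment 0 members were called lower by edgeR, and with total-count scaling 2 were. Jun measured 342, 365, 351 and 337 CPM without DSF and 246, 234, 248 and 255 CPM with it (-0.51 ± 0.041), and all 4 treated libraries lay below all vehicle libraries. Egr2 had a change of -0.07 (adjusted p = 0.424). Of 9 regulators of mRNA decay 6 were higher and 3 lower. Zfp36, tristetraprolin, rose by 0.90, whereas Zfp36l1, its relative, fell by 1.18 and Zc3h12d, a regnase family member, by 1.22.

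The genes that receive and carry the LPS signal moved both ways, with 13 of 25 tested higher, 9 lower and a median of 0.10. With total-count scaling this turned to 8 higher and 12 lower (median -0.10). Ly96, which encodes MD-2, the LPS-binding partner of TLR4, measured 4.16, 3.63, 4.49 and 2.89 CPM in LPS libraries and 15.6, 15.8, 16.6 and 16.4 CPM in LPS+DSF libraries (2.08 ± 0.11). Tlr4 was low throughout, at 2.58 to 5.27 CPM against 4.44 to 6.62 CPM, and the ranges overlapped (0.57 ± 0.18, adjusted p = 0.00691). The signalling kinases Irak2 and Map3k8 rose by 1.82 and 1.48. Ly86, MD-1 of the RP105 complex, fell by 0.92.

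NF-kB subunits, inhibitors and feedback genes had 4 of 22 higher, 10 lower, 8 not called and a median of -0.06. With total-count scaling 1 was higher and 18 lower, and with the spread of all 20 libraries 1 was higher and 4 lower. The inhibitor of apoptosis gene Birc3 fell by 0.86, the nuclear co-regulator Bcl3 by 0.81 and Tnip3, a partner of A20, by 0.98. Cytokines and chemokines had 8 of 27 higher, 12 lower and a median of -0.19, and with the spread of all 20 libraries 2 were higher and 3 lower. Cxcl2, a chemokine for neutrophils, stood out at 20.6, 16.3, 25 and 19.8 CPM without DSF and 161, 150, 163 and 172 CPM with it (2.99 ± 0.11, adjusted p = 2.63e-09). Tgfb1 rose by 1.04 and Tnf by 0.76, whereas Ccl22 fell by 1.18, Il1b fell by 1.12 and Il10 fell by 0.42, and Il6 had a change of -0.19 (adjusted p = 0.0561). Without LPS replicates 3 and 4, Il6 was called at -0.28.

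Interferon-stimulated genes had 21 of 32 lower, 8 higher and a median of -0.26. Ifit1, which binds foreign RNA, measured 629, 707, 646 and 603 CPM without DSF and 366, 380, 367 and 386 CPM with it (-0.79 ± 0.044), and the GTPase gene Gbp3 fell by 0.88. Rsad2, viperin, and Irf9, a subunit of the interferon-activated factor ISGF3, rose by 0.90 and 0.91. When the spread was estimated over all 20 libraries of the first experiment, only 1 member of this list was called lower and 3 higher.

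Surface molecules of activation and costimulation had 11 of 19 lower, 5 higher and a median of -0.19, and with the spread of all 20 libraries 4 were lower and 3 higher. Cd83, a marker of activated B cells, measured 2085, 2297, 2136 and 2100 CPM in LPS libraries and 1398, 1580, 1413 and 1484 CPM in LPS+DSF libraries (-0.55 ± 0.044). Il2ra, CD25, was lowered further, from 603, 619, 563 and 559 CPM to 261, 270, 244 and 229 CPM (-1.22 ± 0.047). Cd86 fell by 0.24. Cd70, 1 of the 11, was at 0.531 to 0.766 CPM without DSF and passed the filter only through the LPS libraries, so its change is no more than a description. Cd69, an early activation marker, measured 1185 to 1342 CPM against 1202 to 1276 CPM, which overlapped (-0.01, adjusted p = 0.85). Cd274, PD-L1, rose by 1.26.

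B cell markers were lowered, while wider lists of B cell genes moved both ways. The 6 B cell markers were all lower (median -0.56), and their summed level on the total-count scale fell from a range of 4294 to 4413 to one of 2663 to 2732 CPM. With the spread of all 20 libraries 4 were called lower. In the second experiment, of 1 library a group, their median log2 ratio was -0.29, with 1 above and 5 below 0. Cd79b, a signalling chain of the B cell receptor, fell by 0.60. Among 28 genes of the receptor and its proximal signalling, 13 were lower, 9 higher and the median was -0.09. Fcgr2b, the inhibitory Fc receptor, measured 151, 166, 146 and 149 CPM without DSF and 57.9, 55.1, 57.2 and 54.1 CPM with it (-1.45 ± 0.047), and the Src-family kinase gene Blk rose by 1.29 and the adaptor Bcl10 by 1.13. MHC class II genes moved little, with 7 of 16 lower, 5 higher and a median of -0.14, and with total-count scaling 11 were lower and 3 higher. H2-Ab1 fell by 0.39 and its partner chain gene H2-Aa rose by 0.24, while the class I gene H2-D1 rose by 1.11 ± 0.043.

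B cell transcription factors had 12 of 20 lower, 7 higher and a median of -0.32. Mef2c measured 270, 264, 252 and 278 CPM in LPS libraries and 91.0, 94.1, 82.9 and 87.5 CPM in LPS+DSF libraries (-1.58 ± 0.044). Tcf3, which encodes the E2A proteins, fell by 1.41, Ikzf1 (Ikaros) by 1.31, Pou2f2 (OCT2) by 1.2 and Pax5, the factor that holds B cell identity, by 0.77. Prdm1, which encodes BLIMP1, the repressor that drives plasma cell fate, measured 20.8, 19.0, 23.7 and 22.3 CPM without DSF and 70.0, 64.5, 66.8 and 65.8 CPM with it (1.64 ± 0.062, adjusted p = 9.58e-25). Irf4 rose by 0.24.

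Markers of T cells, NK cells, myeloid cells, neutrophils, erythroid cells and dendritic cells were far lower than those of B cells in every library, and plasma cell markers were closer to them. Summed on the total-count scale, T cell markers ranged from 31.5 to 34.7 CPM without DSF and from 22.2 to 23.8 CPM with it, NK cell markers from 5.61 to 6.26 and from 3.52 to 3.83, and myeloid markers from 114 to 129 and from 100.5 to 102. Of 4 tested T cell markers 3 were lower and 1 higher, but 2 of the 4 passed the filter on low counts only through the LPS libraries, and with 10 counts required in every library 1 was higher and 1 lower. Of 3 NK cell markers 1 was lower and 0 were higher by edgeR, and of 6 myeloid markers 2 were lower and 2 higher. Of 5 neutrophil markers 3 were higher and 0 lower by edgeR, and none of these was called with total-count scaling. Neutrophil markers ranged from 14.6 to 16.8 CPM without DSF and from 16.6 to 18.5 CPM with it, erythroid markers from 1.29 to 2.71 and from 2.05 to 2.96, dendritic cell markers from 68.1 to 73.8 and from 93.1 to 105, and plasma cell markers from 1797 to 1832 and from 1876 to 2010. Their part in the changes above was not tested.

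Receptors that place B cells in lymphoid tissue included some of the largest falls. Of 18 genes 9 were lower, 6 higher and the median was -0.42, against backgrounds of 36.1% lower and 35% higher. In the second experiment, of 1 library a group, their median log2 ratio was 0.16, with 10 above and 8 below 0. A median this near 0, and its split, depend on how that experiment is scaled. Ccr6 (chr17:8236043-8257141), the receptor for CCL20, measured 62.5, 63.9, 63.4 and 67.6 CPM in LPS libraries and 5.05, 5.44, 5.70 and 6.10 CPM in LPS+DSF libraries (-3.53 ± 0.075, adjusted p = 3.99e-33). All treated libraries lay far below every vehicle library. Gpr183 (EBI2), a receptor for oxysterols, fell by 1.44, the integrin chain Itgal by 1.05, Cxcr5, which leads B cells into follicles, by 0.73, and Ccr7 by 0.37.

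Other trafficking receptors rose, though the share of raised genes was near the background. Cxcr4, the receptor for CXCL12, measured 67.1, 67.6, 82.0 and 82.2 CPM in LPS libraries and 452, 476, 457 and 485 CPM in LPS+DSF libraries (2.65 ± 0.060, adjusted p = 1.12e-19). S1pr1, the sphingosine 1-phosphate receptor for egress from lymphoid organs, measured 21.3, 24.6, 29.4 and 25.9 CPM without DSF and 96.3, 100.4, 101 and 105 CPM with it (1.99 ± 0.064). S1pr4 rose by 1.18.

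BCL2 family genes and caspase inhibitors had 10 of 19 tested lower, 7 higher and a median of -0.47, against backgrounds of 36.1% lower and 35% higher. With DESeq2, which tested 21 of them, the median was -0.10. The survival gene Bcl2 measured 97, 93.7, 93.3 and 90.6 CPM in LPS libraries and 34.9, 32.0, 33.4 and 32.5 CPM in LPS+DSF libraries (-1.50 ± 0.050). Bcl2l1 (BCL-XL) fell by 0.74 and Bcl2a1d (A1) by 1.24, with reads that its paralogs may share. Bcl2l11 (BIM), which promotes death, ranged from 358 to 395 CPM without DSF and measured 974, 972, 953 and 952 CPM with it (1.35 ± 0.042). Pmaip1 (NOXA) rose by 1.67, Bax by 1.01 and the survival gene Mcl1 by 0.33. Inflammasome and gasdermin genes had 6 of 11 tested higher and 3 lower, and with total-count scaling 3 were higher and 5 lower. The sensors Nlrp3 and Aim2 rose by 0.78 and 0.74, and Gsdmd, the pore-forming gasdermin D, had a change of -0.11 (adjusted p = 0.0547).

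Genes of quiescent lymphocytes were raised in 14 of 17 cases, with 1 lower and a median of 0.61. Pik3ip1, an inhibitor of PI3 kinase, measured 11.2, 10, 12.1 and 13.7 CPM in LPS libraries and 58.8, 61.7, 61.1 and 64.3 CPM in LPS+DSF libraries (2.39 ± 0.072). Tob1, an antiproliferative gene, rose by 1.78 and the repressor Klf3 by 1.51. Klf2, the best known quiescence factor, had a change of 0.01 (adjusted p = 0.91), and -0.20 with total-count scaling.

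Myc measured 1294, 1384, 1287 and 1312 CPM in LPS libraries and 965, 994, 957 and 980 CPM in LPS+DSF libraries, a fall without overlap (-0.44 ± 0.040, adjusted p = 1.63e-12). Mxd1, which competes with MYC for MAX, went the other way, from 53.7, 54.7, 53.7 and 52.0 CPM to 249, 252, 257 and 257 CPM (2.25 ± 0.042). Another antagonist, Mnt, rose by 0.87 and Mlx fell by 1.19. Of 9 tested genes of this network 5 were higher and 2 lower, and 3 were higher with total-count scaling. Among 16 genes of the G1 phase 9 were higher and 6 lower. Ccnd2, cyclin D2, the D cyclin by which stimulated B cells enter the cycle, measured 1704, 1587, 1653 and 1645 CPM without DSF and 851, 880, 829 and 812 CPM with it (-0.97 ± 0.041, adjusted p = 7.81e-23). Its kinase partner Cdk4 fell by 0.63. The inhibitor Cdkn2d (p19) rose by 1.71 and E2f3 by 1.21. Replication licensing genes had 11 of 21 lower, 6 higher and a median of -0.16, with Gins4 and Mcm4 down by 0.81 and 0.66 and Cdc6 and Pcna up by 0.88 and 0.60.

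Nucleolar genes of rRNA processing fell by small steps in 36 of 47 cases, with 3 higher and a median of -0.31. Rrp12 measured 160, 153, 146 and 150 CPM in LPS libraries and 87.3, 89.8, 90.5 and 88.0 CPM in LPS+DSF libraries (-0.78 ± 0.042), Rrp1b fell by 0.76 and Tcof1, treacle, by 0.74. Nucleolin, Ncl, fell by 0.12, and nucleophosmin, Npm1, had a change of 0.06 (adjusted p = 0.193). The E-box CACGTG, the letters bound by MYC and MAX, was present in 10 of the 40 genes of this list with a promoter window (25%). It was present in 2187 of all 27025 genes with a window (8.09%).

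Ribosomal protein genes of the cytosol and of mitochondria differed in direction after TMM normalisation, and with total-count scaling the cytosolic ones moved to near 0. Of 78 cytosolic ribosomal protein genes 64 were higher, 0 were lower and 14 were not called by edgeR. The median was 0.25, and with total-count scaling it was 0.04, with 14 higher and 5 lower. Rps14 measured 954, 947, 1091 and 1006 CPM in LPS libraries and 1284, 1262, 1446 and 1462 CPM in LPS+DSF libraries (0.45 ± 0.051). Of 77 mitochondrial ribosomal protein genes 61 were lower, 5 higher and the median was -0.50. Mrpl42 measured 24.7, 23.3, 23.3 and 22.4 CPM without DSF and 7.81, 7.92, 7.5 and 8.35 CPM with it (-1.57), and Mrpl34 fell by 1.32. Mrps6 rose by 1.76. Its count may hold reads of Slc5a3, which overlaps it on the same strand.

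Nuclear genes of the respiratory chain fell in 54 of 76 cases, with 4 higher and a median of -0.34. Uqcr11, of complex III, measured 16.1, 14.6, 15.5 and 16.9 CPM without DSF and 3.85, 6.23, 5.52 and 4.8 CPM with it (-1.62 ± 0.11). The complex I genes Ndufv1 and Ndufb10 fell by 1.32 and 1.03. Of the 13 protein genes of the mitochondrial genome, 9 were higher, 0 were lower by edgeR and the median was 0.33, and 6 were higher with total-count scaling. Of these, mt-Nd2 measured 1020, 1106, 1098 and 1060 CPM in LPS libraries and 1469, 1391, 1324 and 1426 CPM in LPS+DSF libraries (0.39 ± 0.042). Neighbouring mitochondrial genes overlap, so reads between them are divided uncertainly.

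**Figure D4:**
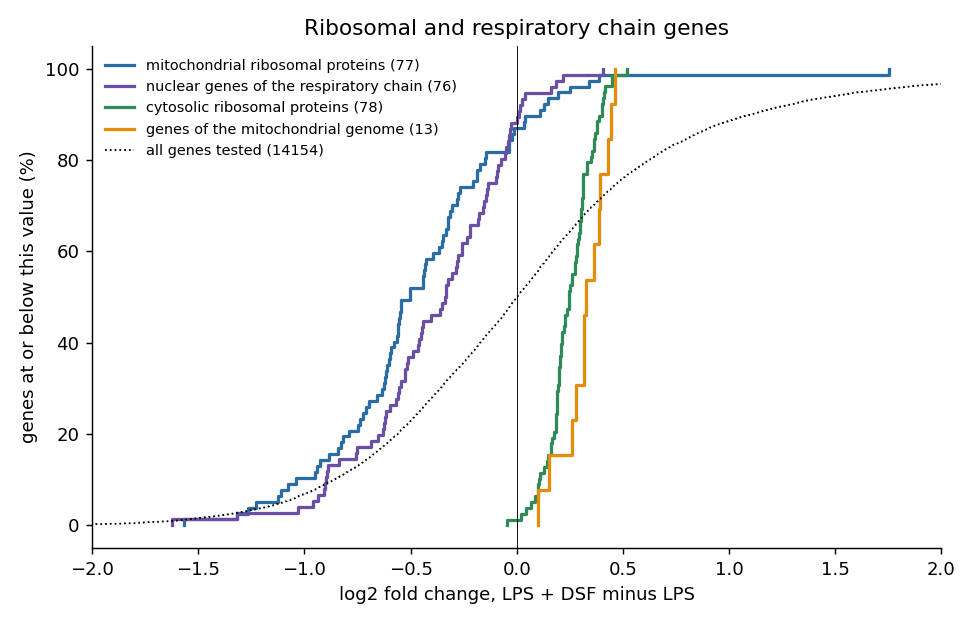
Cumulative percentage of genes (y axis) at or below each log2 fold change of LPS+DSF minus LPS (x axis) for 4 gene lists and for all 14154 genes tested (dotted). The curves of mitochondrial ribosomal proteins (median -0.50) and of nuclear respiratory chain genes (median -0.34) lie left of all genes, and those of cytosolic ribosomal proteins (median 0.25) and of the mitochondrial genome (median 0.33) rise in narrow steps mostly to the right of 0.

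Genes of biosynthesis outside pyrimidines were also more often lowered than raised. Purine synthesis and one-carbon enzymes had 15 of 23 lower, 5 higher and a median of -0.45. Their changes ranged from -1.77 to 2.20, so the largest was a rise. Gart, which catalyses several steps of purine synthesis, measured 188, 170, 178 and 180 CPM in LPS libraries and 60.9, 61.7, 62.4 and 60.4 CPM in LPS+DSF libraries (-1.54 ± 0.044). Prps2, which makes the ribose donor of both nucleotide routes, fell by 1.77 and Mthfd1, an enzyme of folate one-carbon units, by 1.26. The pyrimidine enzymes set aside here had a median of -0.45 over 41 tested genes, with 26 lower and 6 higher.

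Glycolysis genes had 12 of 23 higher, 7 lower and a median of 0.28, and with total-count scaling 9 were higher and 10 lower (median 0.07). The glucose transporter Slc2a1 rose by 1.19 and Eno2 by 1.86. Hexokinase 2, Hk2, which holds glucose in the cell, measured 147, 134, 135 and 134 CPM without DSF and 54.6, 54.5, 53.9 and 52.1 CPM with it (-1.35), and Ldha, lactate dehydrogenase, fell by 0.59. Cholesterol synthesis genes had 13 of 24 lower, 6 higher and a median of -0.21, with Hsd17b7, Mvk and Lss down by 1.54, 1.11 and 1.06, and the sterol sensor partner Insig1 up by 0.55.

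Aldehyde dehydrogenases, the family that DSF is known to inhibit, showed no common change: of 21 genes 12 were tested, of which 2 were higher, 4 lower and 6 not called, and the median was -0.03. With total-count scaling 1 was higher and 7 lower. Aldh1a2, which makes retinoic acid, measured 0.133, 0.0806, 0.435 and 0.361 CPM in LPS libraries and 2.24, 2.22, 2.16 and 1.51 CPM in LPS+DSF libraries . It was low in every library, and it passed the filter on low counts only through the LPS+DSF libraries, so its place among the 2 higher is a description. Aldh4a1 and Aldh1b1, both mitochondrial, fell by 0.82 and 0.65. Nucleotide excision repair genes had 15 of 21 lower, 4 higher and a median of -0.42. The nuclease gene Ercc4 fell by 1.25 and Gtf2h4, of the helicase complex TFIIH, by 1.13, while Gtf2h1, of the same complex, rose by 1.22. Splicing proteins moved both ways, with 20 of 39 tested higher, 11 lower and a median of 0.11, and the balance turned to 13 higher and 20 lower (median -0.10) with total-count scaling. Hnrnpa2b1 rose by 0.92 and Sf3a1 fell by 1.04.

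The genes with the largest falls by fold were Gm31793 (a lincRNA at 0.773 to 1.42 CPM without DSF), Grm6, Ccr6, Slc4a10 and B3gnt7, of which Gm31793 and Slc4a10 passed the filter only through the LPS libraries. Grm6 (chr11:50850685-50866208), a glutamate receptor gene best known from retina, measured 17.4, 17.2, 18.6 and 17.6 CPM in LPS libraries and 1.43, 2.06, 0.900 and 1.04 CPM in LPS+DSF libraries (-3.69 ± 0.15, adjusted p = 4.36e-24). B3gnt7, a glycosyltransferase, measured 16.9, 18.1, 19.2 and 16.8 CPM without DSF and 1.95, 1.64, 2.46 and 1.62 CPM with it (-3.22 ± 0.13). Both were detected in every library and separated clearly. By difference in CPM, the largest falls included Tmem123, a surface mucin-like protein, from 1104, 1088, 1138 and 1111 CPM to 359, 416, 356 and 375 CPM (-1.56 ± 0.045), Slfn5, from 1015 to 1145 CPM down to 477 to 532 CPM (-1.10 ± 0.044), Ly6e (-1.18) and the kappa constant region Igkc (-0.47).

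Several genes went from near silence to a clear signal. In all, 35 genes had 3 or fewer counts in every LPS library and at least 10 in every LPS+DSF library, and 3 had the reverse. Such genes could be tested only through the group where they were high, so their number is a description. Of the 35, 17 were protein coding, 6 were unclassified transcripts to be experimentally checked (TEC), 4 lincRNAs and 3 microRNA precursors. Efr3b (chr12:3962554-4038915), a plasma membrane scaffold for a lipid kinase, was above that limit but was likewise testable only through the LPS+DSF libraries, at 0.221, 0.322, 0.290 and 0.155 CPM in LPS libraries and 41.3, 31.7, 40.6 and 38 CPM in LPS+DSF libraries, without overlap. Muc3, an intestinal mucin gene, had 0 counts in every LPS library and 33, 27, 44 and 48 counts in the LPS+DSF libraries, at least 11.8-fold higher against a floor of 3 counts per library. On the same floor, Hfm1, a meiotic helicase gene, was at least 44.3-fold higher, Dpf1 at least 20.6-fold and Xirp1, a muscle actin-binding protein gene, at least 18.5-fold. Xirp1 overlaps Cx3cr1 on the same strand. The TEC gene 2610306O10Rik, at least 11.9-fold higher, lies within Bag3 on the same strand, so its reads cannot be told apart from those of Bag3. Hspb7, a further small heat shock protein gene, had 0, 1, 1 and 0 counts without DSF and 22, 16, 10 and 17 with it.

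Types of gene differed in their split. Of 11511 tested protein-coding genes 35.3% were higher and 40.9% lower. Of 350 lincRNA genes 42.3% were higher and 16.6% lower, and of 385 antisense genes 37.9% and 14.3%. Antisense counts are uncertain, since the strand setting of the counting is not given in the sources used here. The 698 processed pseudogenes had 29.4% higher and 10.3% lower. Immunoglobulin variable genes leaned the other way, with 5.35% of 187 higher and 38% lower and a median of -0.19.

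The same drug comparison was available for B cells stimulated with IL-4 and anti-CD40 for 3 h in the same experiment, with no library in common. There, 4509 of 14275 genes were lower (31.6%) and 4292 higher (30.1%), and without vehicle replicates 3 and 4, 4605 of 14887 were lower (30.9%) and 4649 higher (31.2%). Of 33 genes named for the largest changes by fold or by CPM in LPS-stimulated cells, 27 were tested there and 25 were called in the same direction. Without these replicates, which let 1 more gene be tested, 27 were called in the same direction. The genes were picked for large changes, and the share of all genes called in the same direction is not given here. Stress changes were smaller with these replicates: Hspa1b changed by 4.09 with them and by 7.64 without, Hmox1 by 3.92 and 6.79, Efr3b by 4.15 and 6.32, and Sqstm1 by 2.34 and 3.09. Mt1 was not called with them (2.67, adjusted p = 0.069) and was at 6.21 without. The heat shock list had 19 genes higher and 1 lower in both stimulations, with a median of 1.61 in IL-4+anti-CD40 (1.73 without the replicates). NRF2 targets had 21 higher and 3 lower, with a median of 1.55 (2.10 without).

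The difference between the stimulations was tested for these 33 genes as an interaction. It passed the threshold for 8, and for 11 without the vehicle replicates. The 33 genes were chosen by their LPS values, which also enter this difference. Selection can therefore enlarge the LPS side, and these counts are a description. Ccr6 fell further in LPS-stimulated cells, by a difference of -0.84 (adjusted p = 0.000154), which was -0.73 without the replicates. Ccnd2 fell less there, by a difference of 0.73 (adjusted p = 0.000452), which was 0.91 without them. Jun, Fcgr2b and Cd79a, chosen after their values were seen, were called in opposite directions. Fcgr2b fell by 1.45 with LPS and rose by 1.30 with IL-4+anti-CD40 (1.71 without the replicates), a difference of -2.76 (adjusted p = 1.58e-06) that was -3.16 without them. Jun fell by 0.51 and rose by 1.60 (1.85 without the replicates), a difference of -2.11 (adjusted p = 2.76e-06) that was -2.35 without them.

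A second experiment held 1 LPS library and 1 LPS+DSF library and allows no test. Its log2 ratios were scaled by TMM and were lower with total counts, as for Aim2, at 1.23 with TMM and 0.93 with total counts. Signs of ratios near 0 therefore depend on scaling. There, 2700 of 13630 genes were at least 2-fold lower (19.8%) and 2636 at least 2-fold higher (19.3%). Of the 33 genes, 30 had a value and all 30 had the sign of the first experiment. These genes were picked for large changes, some through the filter of 1 group only, and the share over all genes is not given here. Hspa1b had a log2 ratio of 10.55, Hmox1 of 5.24, Efr3b of 7.82, Ccr6 of -3.25 and Grm6 of -4.39. The heat shock list had a median log2 ratio of 2.25 there, and that of NRF2 targets was 0.54, with 8 of 25 below 0 and Nqo1 at -0.34. Interferon-stimulated genes had a median of -2.16, with 0 of 32 above 0, and Slfn5 stood at -4.16. Jun, lowered in the first experiment, had a log2 ratio of 1.83.

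**Figure D5:**
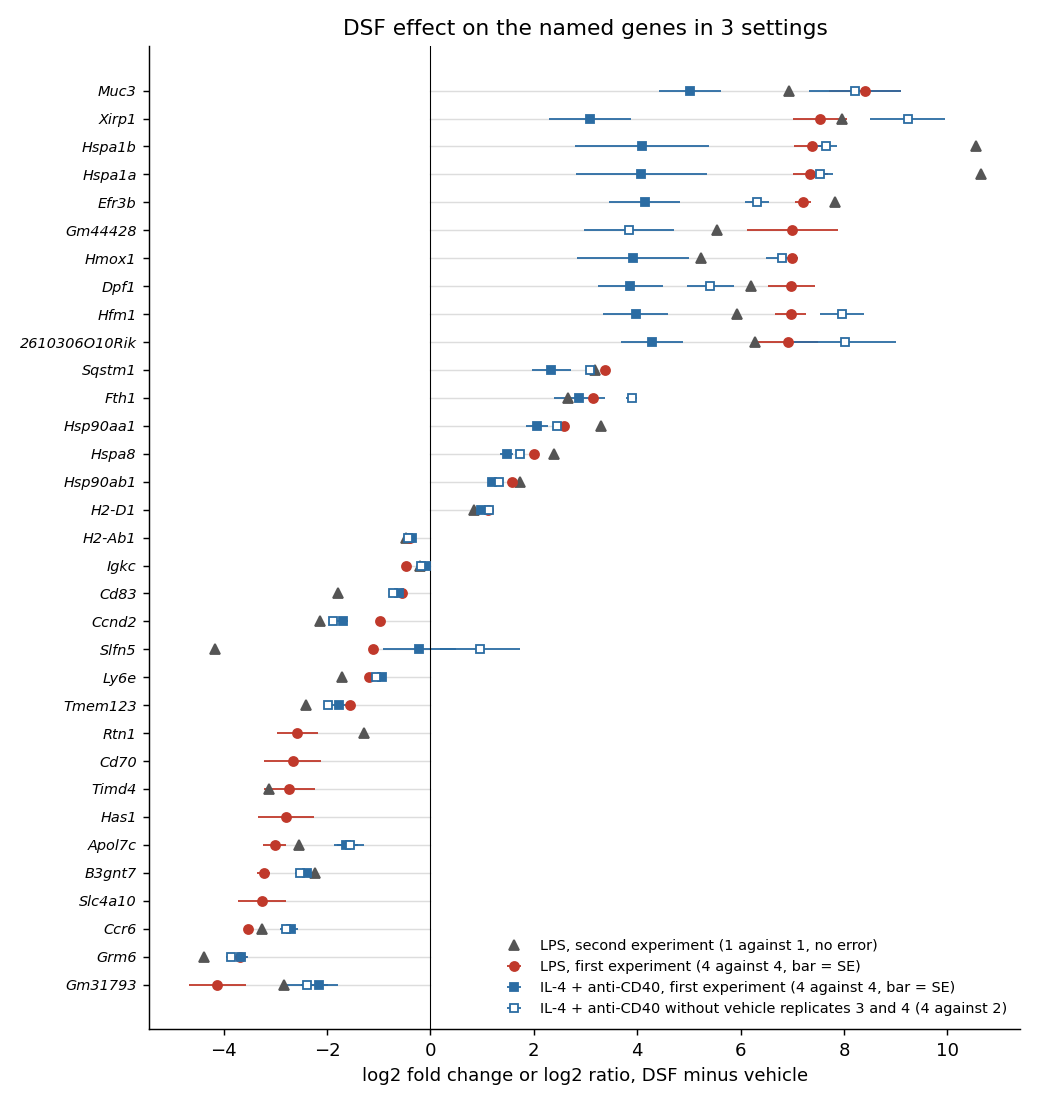
DSF minus vehicle for the 33 genes named for the largest changes in LPS-stimulated B cells: log2 fold changes with SE bars for LPS in the first experiment (red circles, 4 against 4) and IL-4+anti-CD40 (blue squares, 4 against 4; open squares, 4 against 2 without vehicle replicates 3 and 4), and the log2 ratio of single libraries in the second experiment (grey triangles). The signs match in all settings except for the open square of Slfn5 (0.95, adjusted p = 0.35), and for stress genes such as Hspa1b the open squares (7.64) lie much closer to LPS (7.39) than the filled ones (4.09).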

How the data were processed

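B cells of wild-type spleens were profiled by poly-A RNA-seq. According to the methods and labels, the authors trimmed reads with Fastp, aligned them to mm10 with HISAT2 (v2.0.5) and counted genes with featureCounts (v1.5.0-p3), and deposited gene counts together with FPKM values. The tables give FPKM beside the counts, and only counts were tested. The labels describe library construction as directional (dUTP) or non-directional (dTTP). The strand setting and annotation release are not given in the sources used here. All count columns used were matched to samples by name.

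Genes with too few counts were removed with filterByExpr, libraries were scaled by TMM, and LPS+DSF was compared with LPS (4 libraries each) by edgeR (v4.0.16, R v4.3.3) quasi-likelihood F-tests with robust dispersion. P-values were adjusted over all 14154 genes by the Benjamini-Hochberg method, with a threshold of 0.05. The SE is the log2 fold change divided by the square root of F. Alternatives were DESeq2 (v1.42.0), other scalings and filters, all 20 libraries of the experiment, a replicate block and leaving out each library. In simulated counts of this comparison over 14154 genes, edgeR found 99 of 100 genes changed by 1 and 100 of 100 changed by 2 on the log2 scale, with 13 false calls. Few genes were changed in the simulation, as many up as down, while most genes were called in the data. It therefore does not test scaling or false calls under so broad a change. No 2 libraries of a group agreed within sampling noise.

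The gene lists and members were chosen with earlier results of these data known. Besides list members, the text names, per direction, the 10 largest fold changes with an adjusted p under 0.05, no overlap of groups with 10 counts or more in each library of the higher side, and the 8 largest differences in CPM; and, per list, the 3 largest changes and the first 2 members. Some genes that the rule names are not reported here. Motifs were searched in RefSeq promoters (GRCm38.p6). The second experiment was expressed as log2 ratios of TMM-normalised CPM (prior count 2). Values rest on 17898147 to 23183245 counts a library, so low genes carry larger counting error.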

Additional observations from a re-analysis of the deposited data

Results flagged for a closer look

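In 386 groups of 4 values (193 named genes in LPS and LPS+DSF), 1 library stood far from the other 3 in 17 groups, about the 1 in 20 that chance flags. In LPS replicate 1 these were 2610306O10Rik and Xirp1 (0.0442 CPM each, a single read against 0 in the others), H2-Aa (2072 against 2213 to 2240), Hk2 (147 against 134 to 135), Mrpl34 (13.4 against 14.2 to 14.3) and Zfp36 (293 against 321 to 325). In LPS replicate 3 these were Ercc4 (25.3 against 27.2 to 27.5), Nploc4 (114 against 110 to 111), Pax5 (574 against 608 to 610) and Psma2 (147 against 136 to 137). In LPS+DSF replicate 2 these were Hnrnpa2b1 (1766 against 1945 to 1978) and Zfand2a (231 against 252 to 256), and in replicate 3 Xpc (23.0 against 17.8 to 18.4). In LPS+DSF replicate 4 these were Aldh1a2 (1.51 against 2.16 to 2.24), Fos (45.9 against 44.2 to 44.5), Il1b (62.8 against 57.3 to 58.0) and Mvk (2.40 against 3.06 to 3.16).

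The effect of DSF differed between LPS and IL-4+anti-CD40 for 8 of the 33 genes named for the largest changes, by edgeR's test of the interaction. These genes were chosen by their LPS values, which also enter the difference, so the count is a description. Values are the LPS effect minus the IL-4+anti-CD40 effect (log2), first with all libraries and then without IL-4+anti-CD40 replicates 3 and 4, which stood apart in their stress genes. The falls of Apol7c (-1.39, then -1.47), B3gnt7 (-0.85, then -0.69), Ccr6 (-0.84, then -0.73) and Igkc (-0.40, then -0.29) were larger with LPS, and that of Ccnd2 was smaller (0.73, then 0.91). Hsp90ab1 (0.38, then 0.25) and Hspa8 (0.52, then 0.27) rose more with LPS. Ly6e differed by -0.24 (adjusted p = 0.0464) and, without these replicates, by -0.12 (adjusted p = 0.266). A further 3 named genes were called in opposite directions in the stimulations and were singled out after their values were seen: Fcgr2b (-2.76, then -3.16), Jun (-2.11, then -2.35) and Cd79a (-0.65, then -0.70).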

How the results depend on the processing

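Counts of lowered and raised genes were 4938 and 5146 with DESeq2, 6677 and 3477 with total counts, 4525 and 4263 with the spread of all 20 libraries, 5108 and 4955 with a replicate block, and 4982 to 5173 and 4731 to 4861 without 1 library. Same-numbered libraries did not deviate together (correlations 0.115, -0.053, -0.044 and 0.038). Differently numbered pairs ranged from -0.122 to 0.123. These values show no pairing by number, but values this weak cannot exclude it. Requiring over 2-fold left 417 lowered and 1022 raised. With total counts, list counts by edgeR became 8 higher for LPS receptor and TLR signalling, 18 lower for NF-kB, 11 lower for MHC class II, 3 higher for inflammasome, 3 for the Myc network, 14 for cytosolic ribosomal proteins and 13 for splicing, and 7 lower for aldehyde dehydrogenases. With all 20 libraries they became 4 lower for NF-kB, 3 for cytokines, 1 for interferon-stimulated genes, 4 for surface molecules and 8 for cholesterol, and 3 higher for inflammasome, 3 for the Myc network and 35 for cytosolic ribosomal proteins. These signs turned with total counts: Ebf1 -0.20, Klf2 -0.20, Npm1 -0.15, Psma2 -0.10, Rela -0.15, Rpl10a -0.012, Srsf1 -0.063, Srsf10 -0.072 and Trp53 -0.11. By construction that scaling moves the median gene to -0.21; other causes were not tested. Over the remaining alternatives for the named genes, 1464 values kept their call, 18 gained and 36 lost it. Leaving out 1 library, 1517 kept it, 9 gained and 18 lost it. Depth limits genes near 1 CPM.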

Other observations

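The unstimulated and vehicle libraries differed in stress genes along their replicate numbers, in CPM on the total-count scale. Hmox1 was at 74.5 and 78.6 in unstimulated replicates 1 and 2 and at 5.36 and 6.52 in replicates 3 and 4, and Fos was at 23.9 and 21.9 against 217 and 211. In IL-4+anti-CD40 vehicle libraries the order was the other way, with Hmox1 at 10.7, 18.9, 141 and 270 and Sqstm1 at 428, 456, 878 and 1231. In the LPS vehicle libraries Hmox1 stayed between 12.6 and 14.7. DSF-treated libraries were close to each other, with Hmox1 at 1386 to 1548 after LPS and 1341 to 1654 after IL-4+anti-CD40. The cause was not tested.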
